A study of Mus musculus with 12 samples.

Results

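Il33 and the genes of the type 2 cytokine pathway around it were followed across 4 knockout genotypes of cultured mouse type II alveolar epithelial cells, the surfactant-making cells of the lung alveolus. The genes were chosen by name: the alarm cytokines Il33, Tslp and Il25, the type 2 effector cytokines Il13, Il4 and Il5, and the receptor chains Il1rl1, Il1rap, Il13ra1 and Il4ra. Of these 10 genes, 9 were measured, by 19 probe sets, among 18193 genes on the array. Il1rl1, which encodes the IL-33 receptor chain ST2, is paired with no probe set in the annotation used here and was not analysed here. RNA of 12 samples was hybridised to Affymetrix mouse arrays, with 3 arrays for each of the genotypes Gnaq/Gna11 knockout, Gna11 knockout, Gna12/Gna13 knockout and Gna12 knockout. The labels give the 3 arrays of a genotype as numbered samples and do not say whether they came from separate animals, so the p-values speak of the spread between samples, and that spread may be technical.

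The 4 genes encode alpha subunits of heterotrimeric G proteins, which relay receptor signals into the cell, Gq and G11 through phospholipase C and calcium and G12 and G13 through RhoA. Every Gnaq/Gna11 array and every Gna11 array came from cells without Gna11, and every Gna12/Gna13 array and every Gna12 array came from cells without Gna12. The stated aim was to set cells of the double knockout mice against cells of the single knockout mice. No wild-type array is among the 12, and the sources used here do not say how, or in which cells, the alleles were deleted. All cells were grown on collagen for 7 days, and their medium, made for bronchial epithelium, held keratinocyte growth factor at 10 μg/ml and no hydrocortisone. A position code in the labels has a number that differs between the Gna11 and Gna12 families of arrays and a letter that differs between double and single knockouts, so its effects cannot be told apart from those of genotype.

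IL-33 is a cytokine of the IL-1 family that is kept in the nucleus and released by damaged or stressed cells. In the mouse lung, type II alveolar epithelial cells are a main source of it. Outside the cell it binds ST2, which pairs with the accessory chain encoded by Il1rap and signals through MyD88 and NF-kB in type 2 innate lymphoid cells, mast cells, T cells and macrophages. TSLP and IL-25 are further epithelial cytokines that act on such cells. The responding cells release IL-5, IL-4 and IL-13, and IL-4 and IL-13 signal through receptors that share the IL-4 receptor alpha chain and activate the transcription factor STAT6.

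Il33 was the member whose values varied most, and RefSeq places 2 start sites for it on chromosome 19 of assembly GRCm38.p6. The 250 bases before each start site are shown because Il33 carried the differences between genotypes described below, and because its 1 probe set gives 1 value that is not divided between the start sites. Capitals mark matches to the 5 motifs that were searched for on both strands. These were the TATA box TATAAA, the AP-1 motif TGANTCA, the STAT6 motif TTCNNNNGAA, the NF-kB motif GGGNNNNNCC and the interferon response motif GAAANNGAAA.
Il33 upstream start site, chr19:29924863-29925112, plus strand: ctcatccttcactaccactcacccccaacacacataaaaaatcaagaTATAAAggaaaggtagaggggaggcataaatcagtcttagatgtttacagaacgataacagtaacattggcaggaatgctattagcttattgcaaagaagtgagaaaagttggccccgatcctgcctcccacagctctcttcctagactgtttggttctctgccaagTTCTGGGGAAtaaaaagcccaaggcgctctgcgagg
Il33 downstream start site, chr19:29945540-29945789, plus strand: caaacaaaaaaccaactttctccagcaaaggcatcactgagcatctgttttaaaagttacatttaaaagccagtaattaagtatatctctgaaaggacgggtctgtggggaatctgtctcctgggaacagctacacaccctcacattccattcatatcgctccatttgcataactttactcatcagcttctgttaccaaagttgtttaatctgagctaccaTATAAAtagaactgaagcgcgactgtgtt
The window of the upstream start site held TATAAA at bases -203 to -198 and the STAT6 motif at bases -36 to -27, counted from the start site. The window of the downstream start site held TATAAA at bases -29 to -24 and no other motif of the 5. Of 32851 such windows of mouse genes, 12.4% held TATAAA, 6.75% held the AP-1 motif, 5.85% the STAT6 motif, 45.8% the NF-kB motif and 2.98% the interferon response motif. These matches are letters in the reference sequence, and binding there was not measured.

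Il33 gave its highest values on the Gnaq/Gna11 arrays, the next highest on the Gna11 arrays, and lower values on the arrays of both genotypes without Gna12. All values are log2 expression values, and 1 unit is a factor of 2 if the deposited logarithm has base 2, as it was read. Il33 was at 11.43, 11.17 and 11.52 on the Gnaq/Gna11 arrays, and at 10.35, 9.69 and 9.66 on the Gna11 arrays. It was at 8.20, 8.11 and 9.29 on the Gna12/Gna13 arrays, and at 7.78, 7.02 and 9.04 on the Gna12 arrays. All 3 Gnaq/Gna11 arrays lay above all others, the Gna11 arrays lay above every array without Gna12, and the Gna12/Gna13 and Gna12 arrays overlapped. The means were 11.4 ± 0.183 in Gnaq/Gna11 cells, 9.90 ± 0.389 in Gna11 cells, 8.54 ± 0.657 in Gna12/Gna13 cells and 7.95 ± 1.02 in Gna12 cells (SD, n = 3 each), so the groups with the lowest level had the widest spread. The range of Il33 over the 12 arrays was 4.50, against a median range of 0.91 over all genes, and 0.484% of genes had a larger range. In RNA from cultured cells in bulk, fewer Il33-expressing cells and less Il33 RNA per cell cannot be told apart.

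**Figure D1:**
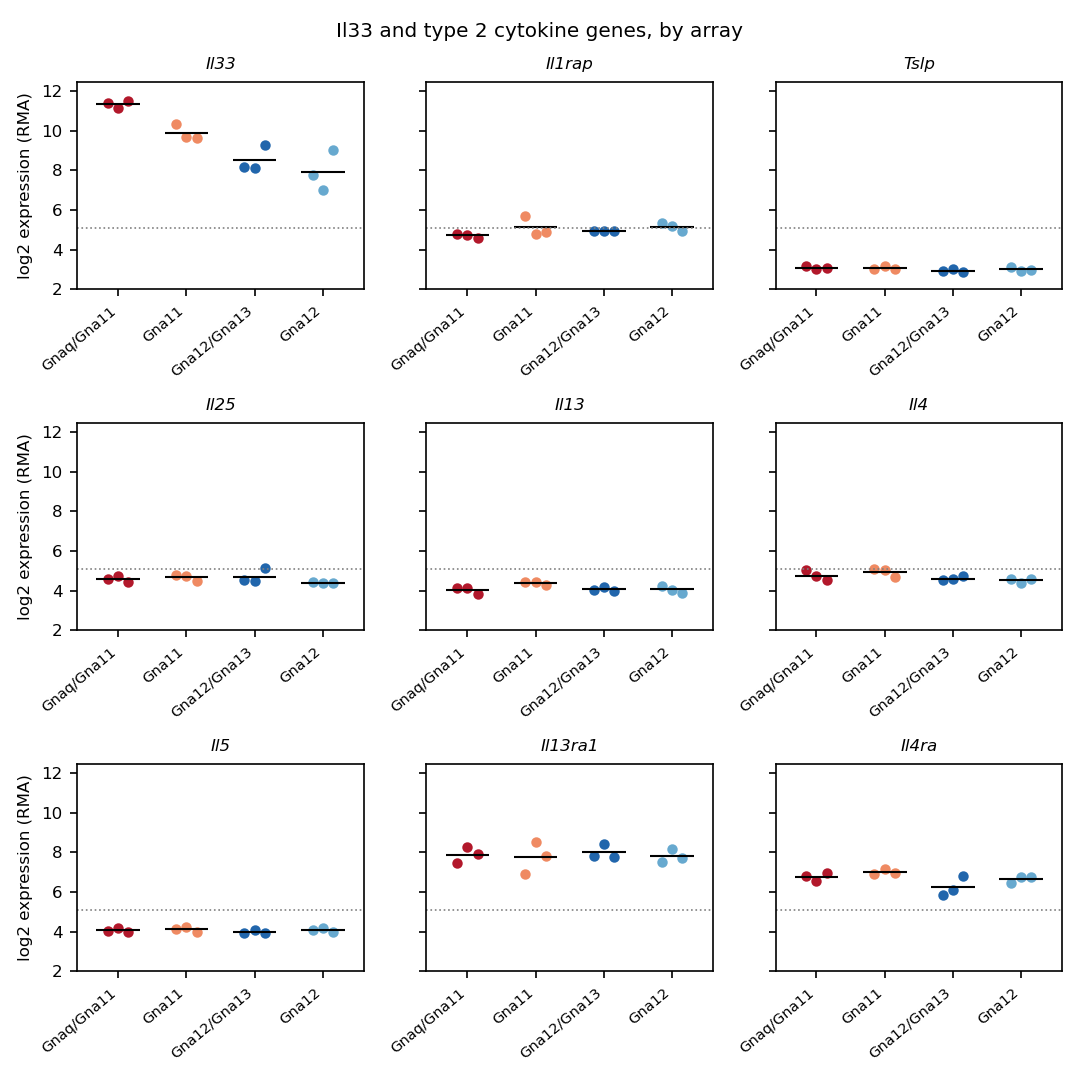
Expression of the 9 measured genes by array, on the log2 scale, with the 4 genotypes along each horizontal axis; points are arrays, bars are group means and the dotted line marks 5.078, the median over all probe sets other than controls. Il33 spans 7.02 to 11.52, while Tslp, Il13 and Il5 lie below the dotted line on all 12 arrays.

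Each Gnaq/Gna11 array had more Il33 RNA than each Gna11 array, but the difference did not pass the test over all genes. It was 1.48 ± 0.458 (SE), or 2.79-fold, with a 95% interval of 0.47 to 2.48 (limma, adjusted p = 0.139). No member gene passed in this comparison, of 9 tested, while 1.84% of all genes did. An unadjusted p under 0.05 was reached by 2 of the 9 in limma, Il33 and Il13, and by 2941 of the 18193 genes. For 3 of the 9 members no Gnaq/Gna11 array fell within the range of the Gna11 arrays or the reverse, and this was so for 19.7% of all genes. By the size of the difference Il33 ranked 313 among all genes. The estimate of error pooled all 4 genotypes, and the spread of Il33 was larger in both genotypes without Gna12. In a fit to the 6 arrays of this comparison alone the difference was 1.48 ± 0.209, which passed (limma, adjusted p = 0.0359). The 15 other alternative analyses did not pass, with limma adjusted p-values up to 0.588.

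Between the Gna12/Gna13 and Gna12 arrays the difference in Il33 was 0.59 ± 0.458, with an interval of -0.42 to 1.59 (limma, adjusted p = 1), so the 1.48 estimated between Gnaq/Gna11 and Gna11 cells lies within its interval. In this comparison 0% of all genes passed in limma, while 820 genes and none of the 9 members had an unadjusted p under 0.05 in limma. The Gnaq/Gna11 minus Gna11 difference exceeded the Gna12/Gna13 minus Gna12 difference by 0.89 ± 0.648, with an interval of -0.53 to 2.32. This did not pass (limma, adjusted p = 0.682), while 0.0715% of all genes did.

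Il33 passed the test where families of genotypes were compared. It was 2.84 ± 0.458 higher in Gnaq/Gna11 than in Gna12/Gna13 cells, or 7.16-fold (limma, adjusted p = 0.00617), and it was the only one of the 9 members to pass, against 6.1% of all genes. The call held in all 16 alternative analyses, with differences between 2.63 and 3.22. It was also lower in Gna12 than in Gna11 cells, by 3.86-fold (log2 difference -1.95 ± 0.458, limma, adjusted p = 0.0488), again as the only member to pass, against 2.82% of all genes. That second call was close to the threshold and was lost in 11 of 16 alternatives, including the omission of any Gna11 array or of Gna12 replicate 1 or 2. Omitting Gna12 replicate 3, in which Il33 was at 9.04, gave -2.49 (limma, adjusted p = 0.0142).

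**Figure D2:**
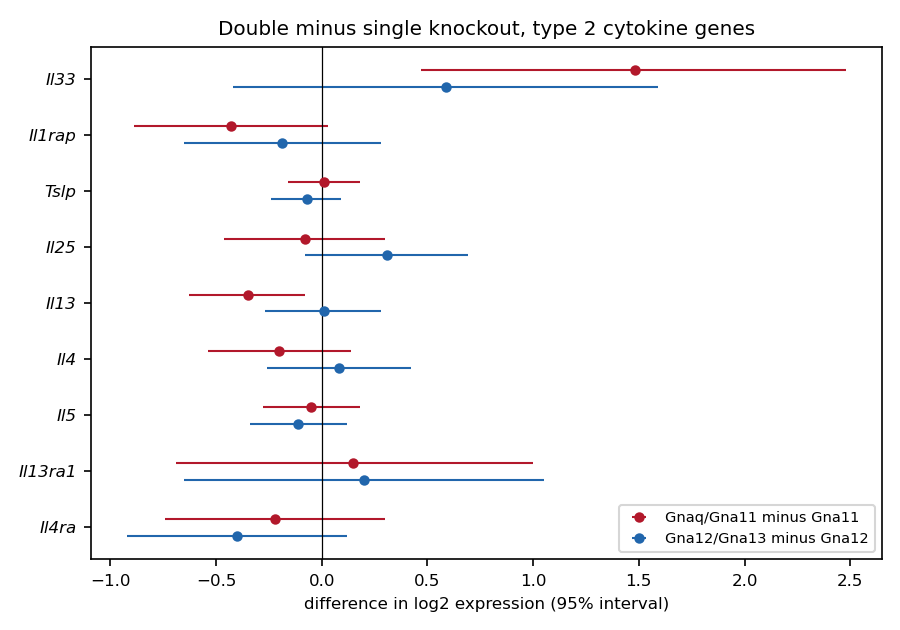
Log2 differences between double and single knockout for each of the 9 measured genes, with 95% intervals of the limma fit (n = 3 arrays per genotype); red is Gnaq/Gna11 minus Gna11 and blue is Gna12/Gna13 minus Gna12. Il33 in red, at 1.48, lies farthest from 0, and no other interval in red except that of Il13 leaves out 0.

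The other alarm cytokines gave low values with small differences between genotypes. Tslp, whose product acts through a receptor of Crlf2 and Il7r, was at 3.16, 3.04 and 3.06 on the Gnaq/Gna11 arrays, against 3.02, 3.19 and 3.02 on the Gna11 arrays. It was at 2.89, 3.02 and 2.88 on the Gna12/Gna13 arrays, against 3.11, 2.93 and 2.98 on the Gna12 arrays. Its range over all arrays was 0.31, and its Gnaq/Gna11 minus Gna11 difference was 0.01, with an interval of -0.16 to 0.18. Il25, also known as IL-17E, was at 4.56, 4.76 and 4.43 on the Gnaq/Gna11 arrays, against 4.80, 4.74 and 4.46 on the Gna11 arrays. It was at 4.52, 4.47 and 5.13 on the Gna12/Gna13 arrays, against 4.44, 4.39 and 4.37 on the Gna12 arrays. The Gna12/Gna13 arrays thus lay above the Gna12 arrays, by 0.31 ± 0.173 on average, with 1 array at 5.13 above the others, and the difference did not pass (limma, adjusted p = 1). Il25 was the only member of 9 whose arrays did not overlap in this comparison, against 11.3% of all genes.

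The effector cytokines of type 2 immunity, made mainly by lymphocytes, mast cells and eosinophils, gave low values: Il13 and Il5 lay below the probe set median on all 12 arrays and Il4 on all but 1. Il13 was at 4.14, 4.15 and 3.81 on the Gnaq/Gna11 arrays, against 4.44, 4.45 and 4.27 on the Gna11 arrays. The groups did not overlap, and the difference of -0.35 ± 0.126 did not pass (limma, adjusted p = 0.195). Il13 was at 4.04, 4.18 and 3.97 on the Gna12/Gna13 arrays and at 4.25, 4.05 and 3.88 on the Gna12 arrays, which overlapped. Il4 was at 5.04, 4.72 and 4.51 on the Gnaq/Gna11 arrays, against 5.11, 5.03 and 4.71 on the Gna11 arrays. It was at 4.53, 4.57 and 4.72 on the Gna12/Gna13 arrays, against 4.60, 4.39 and 4.60 on the Gna12 arrays, and both pairs overlapped. Il5, the eosinophil growth factor, ran from 3.91 to 4.23 over the 12 arrays, with a Gnaq/Gna11 minus Gna11 difference of -0.05 ± 0.104. Il25, Il13 and Il4, like Il33 and Il4ra, gave lower values on all 3 Gna12 arrays than on all 3 Gna11 arrays. These were 5 of 9 members, all lower, and only Il33 passed the test. Of all genes, 15.9% had Gna12 arrays that all lay below the Gna11 arrays, and 26.3% were apart in either direction. Il4ra counts here by its brightest probe set, and its other probe sets had Gna12 minus Gna11 differences of 0.05 and 0.19. The means of Il25, Il13 and Il4 over all arrays were under the probe set median.

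Of the receptor chains, Il1rap, the partner of ST2, was at 4.79, 4.76 and 4.60 on the Gnaq/Gna11 arrays, against 5.72, 4.80 and 4.90 on the Gna11 arrays. The groups were apart by the narrow gap between 4.79 and 4.80, and 1 Gna11 array stood above the other two. The difference of -0.43 ± 0.21 had an interval of -0.89 to 0.03 (limma, adjusted p = 0.35). Il1rap was at 4.95, 4.95 and 4.96 on the Gna12/Gna13 arrays, against 5.32, 5.17 and 4.94 on the Gna12 arrays. Its 4 other probe sets had means between 3.19 and 4.28, and their Gnaq/Gna11 minus Gna11 differences were 0.03 to 0.11 for 3 of them and -0.20 for 1. None of these passed.

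Il13ra1 encodes the chain that binds IL-13, and its brightest probe set varied within every genotype. It was at 7.47, 8.30 and 7.92 on the Gnaq/Gna11 arrays, against 6.90, 8.54 and 7.80 on the Gna11 arrays, and the groups overlapped. It was at 7.83, 8.41 and 7.76 on the Gna12/Gna13 arrays, against 7.50, 8.17 and 7.74 on the Gna12 arrays. Replicate 2 gave the highest value in all 4 genotypes. A dimmer Il13ra1 probe set, at 5.39, 4.92 and 5.22 on the Gnaq/Gna11 arrays and 4.87, 4.45 and 4.65 on the Gna11 arrays, did not overlap between these groups. Its difference of 0.52 ± 0.159 did not pass over all probe sets (limma, adjusted p = 0.181), and the 3 others had differences from -0.07 to 0.14.

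Il4ra, the chain that IL-4 and IL-13 receptors share, was at 6.83, 6.56 and 6.94 on the Gnaq/Gna11 arrays, against 6.89, 7.15 and 6.94 on the Gna11 arrays. It was at 5.86, 6.12 and 6.80 on the Gna12/Gna13 arrays, against 6.48, 6.75 and 6.74 on the Gna12 arrays. The lowest values were thus on 2 of the Gna12/Gna13 arrays, and the difference of -0.40 ± 0.236 from Gna12 cells had an interval of -0.92 to 0.12 (limma, adjusted p = 1). The 3 Il4ra probe sets disagreed on Gnaq/Gna11 against Gna11 cells, with differences of -0.22, 0.16 and 0.38, none of which passed. Over the 9 members the median size of the Gnaq/Gna11 minus Gna11 difference was 0.20, against 0.18 over all genes.

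Some genes for other receptor chains of the pathway rose in Gnaq/Gna11 cells. In a list of 18 measured genes of type 2 receptors and STAT6 signalling, 3 rose and none fell relative to Gna11 cells, while 1.17% of all genes rose, and the median difference was 0.11 against -0.03 over all genes. Crlf2, the TSLP receptor chain, was at 10.97, 10.24 and 10.57 on the Gnaq/Gna11 arrays, against 9.30, 9.10 and 9.72 on the Gna11 arrays, a difference of 1.22 ± 0.221 (limma, adjusted p = 0.0228). Il7r, which TSLP and IL-7 receptors share, was at 10.33, 10.48 and 10.06 in Gnaq/Gna11 cells, against 9.24, 8.32 and 8.61 in Gna11 cells, a difference of 1.57 ± 0.317 (limma, adjusted p = 0.0362). Csf2rb, the chain that IL-5, IL-3 and GM-CSF receptors share, was at 11.44, 11.30 and 11.42 in Gnaq/Gna11 cells, against 10.25, 9.20 and 10.50 in Gna11 cells, a difference of 1.40 ± 0.296 (limma, adjusted p = 0.0398). The 3 genes thus separated the groups, but omitting any 1 of the 6 arrays left between 0 and 2 calls in the list. Crlf2 and Csf2rb were also higher in Gna12 than in Gna11 cells, by 1.55 ± 0.221 and 1.29 ± 0.296 (limma, adjusted p = 0.00789 and 0.0454), so Gna11 cells were the low group for both. The mean of the pan-leukocyte markers described below was also lowest in Gna11 cells, at 8.03 to 8.80. Il7r was instead higher in Gnaq/Gna11 than in Gna12/Gna13 cells, by 1.52 ± 0.317 (limma, adjusted p = 0.0197).

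Stat6 itself, the IL-25 receptor gene Il17rb and the IL-13 decoy receptor gene Il13ra2 were chosen for their roles after their values were seen. Stat6 was at 8.31, 8.56 and 8.42 in Gnaq/Gna11 cells, against 8.69, 7.85 and 8.36 in Gna11 cells, and the groups overlapped. Il17rb was at 6.38, 5.68 and 5.44 in Gnaq/Gna11 cells, against 5.31, 5.71 and 6.32 in Gna11 cells, which also overlapped. Il13ra2 was at 4.84, 4.68 and 4.66 in Gnaq/Gna11 cells, against 5.09, 5.01 and 5.06 in Gna11 cells. It separated the groups with a difference of -0.33 ± 0.118 that did not pass (limma, adjusted p = 0.197).

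Genes that respond to IL-13 and STAT6 in airway epithelium were the list with the most calls among the pathway lists. Of 19 measured genes, 4 rose in Gnaq/Gna11 cells relative to Gna11 cells and none fell, while 1.17% of all genes rose. The median difference was 0.45 against -0.03 over all genes, with 16 differences positive and 3 negative. Cdh26 had the largest negative difference, -1.59 ± 0.518 (limma, adjusted p = 0.159), and omitting an array gave 0 to 1 genes that fell. Spdef, Foxa3, Muc5ac and Muc5b differed by 0.02, -0.04, 0.45 and 0.17 and did not pass. Cdh26 and these genes were named after their values were seen. The lists were chosen with earlier results of these data known, Clca1 among them, so the count of 4 calls is not independent evidence of a response. Slc26a4, the anion exchanger pendrin, was at 8.17, 9.02 and 8.61 on the Gnaq/Gna11 arrays, against 5.30, 5.32 and 5.43 on the Gna11 arrays, which is 9.51-fold (log2 difference 3.25 ± 0.335, limma, adjusted p = 0.0016). It was at 5.36, 5.93 and 6.59 on the Gna12/Gna13 arrays, against 5.19, 5.32 and 6.11 on the Gna12 arrays, so the Gnaq/Gna11 arrays stood above all 9 others. Clca1, a secreted protein of goblet cells, is the fourth call, given here after its values were seen. It was at 6.69, 6.78 and 8.23 on the Gnaq/Gna11 arrays, against 3.33, 4.74 and 3.23 on the Gna11 arrays, a log2 difference of 3.47 ± 0.47 (limma, adjusted p = 0.0072). All 3 Gna11 values were under the probe set median, so the size of this difference is uncertain. It ran from 3.28 to 4.33 on the Gna12/Gna13 arrays and from 3.47 to 3.67 on the Gna12 arrays, again below every Gnaq/Gna11 array and under the probe set median.

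Ccl17 and Ccl22 encode the chemokines that attract cells with the receptor CCR4, among them type 2 helper T cells, and are made by dendritic cells and macrophages as well as by epithelium. Ccl17 was at 13.19, 13.11 and 13.18 on the Gnaq/Gna11 arrays, against 10.64, 10.91 and 11.25 on the Gna11 arrays, a difference of 2.23 ± 0.158 (limma, adjusted p = 0.000332). It was at 12.42, 12.49 and 13.00 on the Gna12/Gna13 arrays, against 12.74, 12.72 and 12.67 on the Gna12 arrays. Ccl22 was at 9.03, 9.09 and 9.36 on the Gnaq/Gna11 arrays, against 5.83, 6.35 and 6.28 on the Gna11 arrays, a difference of 3.01 ± 0.301 (limma, adjusted p = 0.0016). It was at 8.41, 8.59 and 9.48 on the Gna12/Gna13 arrays, against 8.78, 9.35 and 8.57 on the Gna12 arrays. For both chemokines the Gna11 arrays were low and the other 9 high, while Il33 was lowest in the Gna12 group. The pan-leukocyte and macrophage marker means given below were likewise lowest in the Gna11 group. Both were higher in Gna12 than in Gna11 cells, Ccl17 by 1.77 ± 0.158 and Ccl22 by 2.75 ± 0.301 (limma, adjusted p = 0.000721 and 0.00421).

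**Figure D3:**
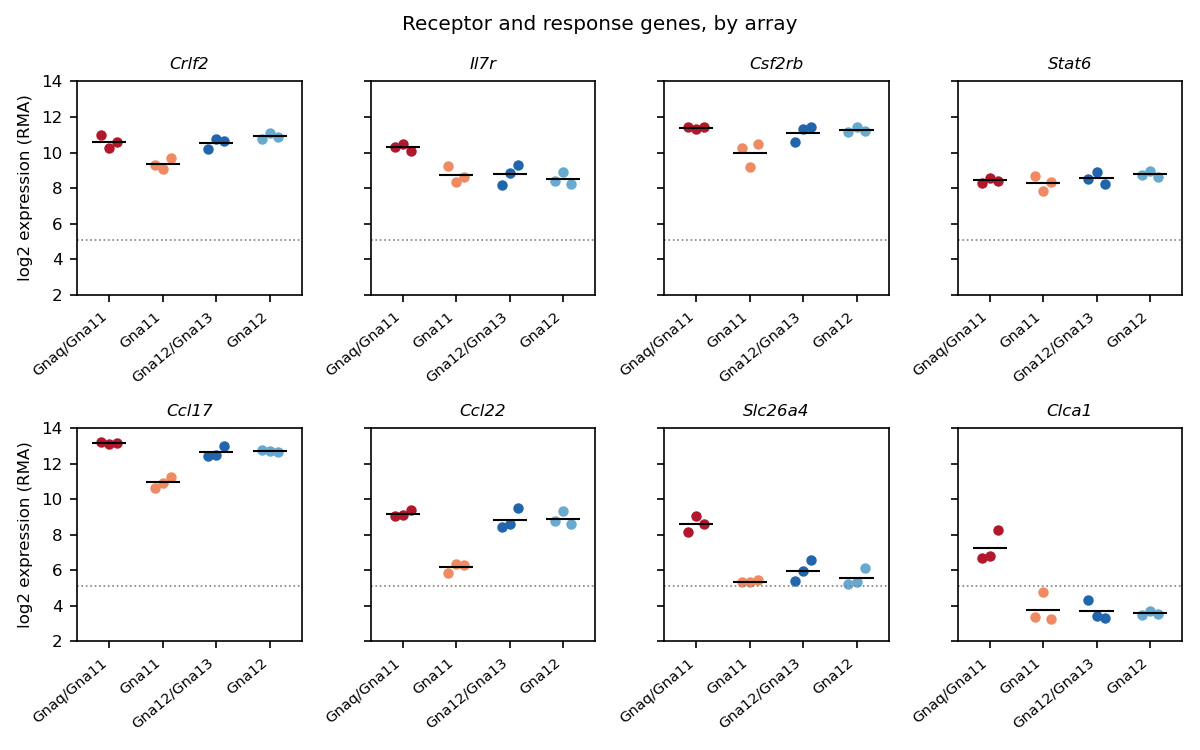
Expression of 4 genes of receptors and signalling (top) and 4 genes that respond to IL-13 and STAT6 (bottom) by array, on the log2 scale, with the 4 genotypes along each horizontal axis; points are arrays, bars are group means and the dotted line is the probe set median, 5.078. Slc26a4 and Clca1 are high on the 3 Gnaq/Gna11 arrays, while Ccl17 and Ccl22 are low on the 3 Gna11 arrays.

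Against Gna12/Gna13 cells, Gnaq/Gna11 cells again had 4 genes of this list higher and none lower, while 2.7% of all genes were higher. They were Slc26a4 (2.64 ± 0.335), Clca1 (3.56 ± 0.47), the goblet cell lectin gene Itln1 (3.52 ± 0.616) and Retnlb (1.59 ± 0.384), which encodes a goblet cell peptide, with limma adjusted p-values from 0.00221 to 0.0362. The Clca1 and Retnlb values of Gna12/Gna13 cells were under the probe set median. Itln1 was at 10.37, 10.39 and 10.26 on the Gnaq/Gna11 arrays, against 7.10, 7.59 and 5.79 on the Gna12/Gna13 arrays. On the Gna11 arrays it was at 8.94, 10.81 and 7.98, which overlapped the Gnaq/Gna11 arrays. Both comparisons use the same Gnaq/Gna11 arrays, so shared calls are not separate evidence.

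The remaining pathway lists held few or no calls between Gnaq/Gna11 and Gna11 cells. None passed among 14 genes of the IL-1 family and its decoys, where Il18bp, which binds IL-18, had the smallest adjusted p, with a difference of 0.79 ± 0.28 (limma, adjusted p = 0.195). None passed among 11 genes of ST2 signalling, led by Tnfaip3, which dampens NF-kB, at 0.61 ± 0.233 (limma, adjusted p = 0.221). None passed among 11 proteases that can process IL-33, led by Gzmb, granzyme B, at -1.47 ± 0.343 (limma, adjusted p = 0.0589), or among 11 other cytokines of type 2 cells, led by Il3 at -0.45 ± 0.109 (limma, adjusted p = 0.0671). Their medians were 0.22, 0.16, -0.07 and 0.04 in that order of lists. Of 14 genes of alternatively activated macrophages, a state that IL-4, IL-13 and IL-33 promote, 2 rose, while 1.17% of all genes did. The list median was 1.00. The genes that rose were Mmp12, macrophage elastase, by 2.33 ± 0.336 (limma, adjusted p = 0.00844), and Fn1, fibronectin, by 2.49 ± 0.411 (limma, adjusted p = 0.016). Fn1 was also higher in Gna12 than in Gna11 cells, by 2.1 ± 0.411 (limma, adjusted p = 0.0285), so Gna11 cells were its low group. Mmp12 was at 5.11, 6.20 and 4.92 on the Gnaq/Gna11 arrays, against 2.98, 3.16 and 3.11 on the Gna11 arrays, and the size of its difference is uncertain because the Gna11 values and 1 Gnaq/Gna11 value were under the probe set median. Omitting Gna11 replicate 1 left 1 call in that list. It too was chosen with earlier results of these data known, macrophage genes among them, so its count is not independent evidence.

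Markers of other cells moved with these groups. Type II alveolar markers were above the probe set median on every array for all 11 genes, and none passed between Gnaq/Gna11 and Gna11 cells, with array means of 10.9 to 11.0 in Gnaq/Gna11 cells and 10.7 to 10.9 in Gna11 cells. They were 10.1 to 10.4 on the Gna12/Gna13 arrays and 10.1 to 10.5 on the Gna12 arrays, and 5 of the 11 were higher in Gnaq/Gna11 than in Gna12/Gna13 cells, the comparison in which Il33 differed by 2.84. In that comparison, where 2.7% of all genes were higher, 4 of 10 fibroblast markers were higher too, led by Col1a1 at 2.25 ± 0.262 (limma, adjusted p = 0.00138). So were 3 of 12 markers of T cells and type 2 innate lymphoid cells, namely Il7r, Klrg1 and Icos, with all 12 differences positive and a list median of 0.90. Of 20 pan-leukocyte markers, 1 lay under the probe set median on all 3 arrays of each genotype. The mean of the 20 was 9.18 to 9.20 on the Gnaq/Gna11 arrays and 8.03 to 8.80 on the Gna11 arrays, and 8.88 to 9.75 on the Gna12/Gna13 arrays and 9.35 to 9.89 on the Gna12 arrays. Relative to Gna11 cells, 19 of the 20 were higher in Gnaq/Gna11 cells and 1, Itgb2, passed, while all 20 were higher in Gna12 cells, where Il33 was lower, and 7 passed, against 1.74% of all genes that were higher in this comparison.

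The 12 macrophage markers had means of 9.57 to 9.58 on the Gnaq/Gna11 arrays and 8.0 to 8.71 on the Gna11 arrays. Between these groups 1.17% of all genes rose, and 4 of the 12 did, led by C1qb at 1.79 ± 0.373 (limma, adjusted p = 0.0391). Omitting any 1 of the 6 arrays left between 0 and 2 of these calls. Macrophage genes were among the earlier results known when the lists were chosen, so this count is not independent evidence. The 12 markers of T cells and type 2 innate lymphoid cells had means of 6.92 to 7.17 in Gnaq/Gna11 cells and 6.46 to 6.64 in Gna11 cells, with 1 rise, Il7r, which is also on the receptor list. Fibroblast markers had means of 6.25 to 6.84 in Gnaq/Gna11 cells and 5.66 to 6.07 in Gna11 cells, and 2 of 10 rose, Col3a1 by 2.10 ± 0.335 and Col1a1 by 1.57 ± 0.262 (limma, adjusted p = 0.0152 and 0.0164). Endothelial markers had means of 6.65 to 6.99 in Gnaq/Gna11 cells and 6.85 to 7.90 in Gna11 cells, with 9 of 10 negative and none passing, and none of 14 mast cell, basophil and eosinophil markers passed. Cma1, a mast cell chymase gene, passed in the same direction as Il33 in the comparisons where Il33 passed. It is also on the list of proteases that can process IL-33. Of the 14 mast cell, basophil and eosinophil markers, 1 was higher and 1 lower in Gnaq/Gna11 than in Gna12/Gna13 cells. Between Gna12 and Gna11 cells none was higher and 2 were lower. Over all genes 6.1% and 2.82% passed in these comparisons. In each genotype between 9 and 11 of the 14 lay under the probe set median on all 3 arrays. Siglecf went in the opposite direction to Il33, at 3.93, 4.62 and 4.60 on the Gnaq/Gna11 arrays, against 5.22, 6.55 and 6.56 on the Gna12/Gna13 arrays. Siglecf was at 4.81, 4.29 and 5.13 on the Gna11 arrays, against 5.62, 6.88 and 6.26 on the Gna12 arrays. Cma1 and Siglecf were named after their values were seen. Cma1 was at 6.62, 8.32 and 8.26 on the Gnaq/Gna11 arrays, against 4.51, 3.87 and 4.95 on the Gna12/Gna13 arrays (3.29 ± 0.637, limma, adjusted p = 0.0137). It was at 6.05, 5.93 and 4.10 on the Gna12 arrays, against 9.03, 7.89 and 7.21 on the Gna11 arrays (-2.68 ± 0.637, limma, adjusted p = 0.0498). The Gapdh control probe sets have a 3' minus 5' difference that grows as RNA is shorter. It was 3.01 to 3.26 on the Gnaq/Gna11 arrays and 3.46 to 4.03 on the Gna11 arrays. On the Gna12/Gna13 arrays it was 2.99 to 3.33, and on the Gna12 arrays 2.67 to 3.25. The 3' signal thus exceeded the 5' signal on every array, and the input was 10 ng of total RNA for each sample.

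When the mean of the pan-leukocyte markers entered the fit as a covariate, the Il33 difference between Gnaq/Gna11 and Gna11 cells was 1.67 ± 0.666, and with the Gapdh difference in its place it was 2.43 ± 0.554 (limma, adjusted p = 0.588 and 0.161). The Gna12 minus Gna11 difference of -1.95 became -1.63 and -0.762 in the same fits (limma, adjusted p = 0.864 and 0.772). The list of genes responding to IL-13 and STAT6 held 2 calls under the leukocyte covariate and 1 under the Gapdh covariate, and the receptor, alternatively activated macrophage and macrophage marker lists held none. Over all genes, 335 passed without a covariate, 14 with the leukocyte covariate and 3 with the Gapdh covariate, and neither measure overlapped between these groups. Beyond these fits, the part of these measures in the differences of Il33, Crlf2, Il7r, Csf2rb, Ccl17, Ccl22, Slc26a4 and Clca1 was not tested.

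**Figure D4:**
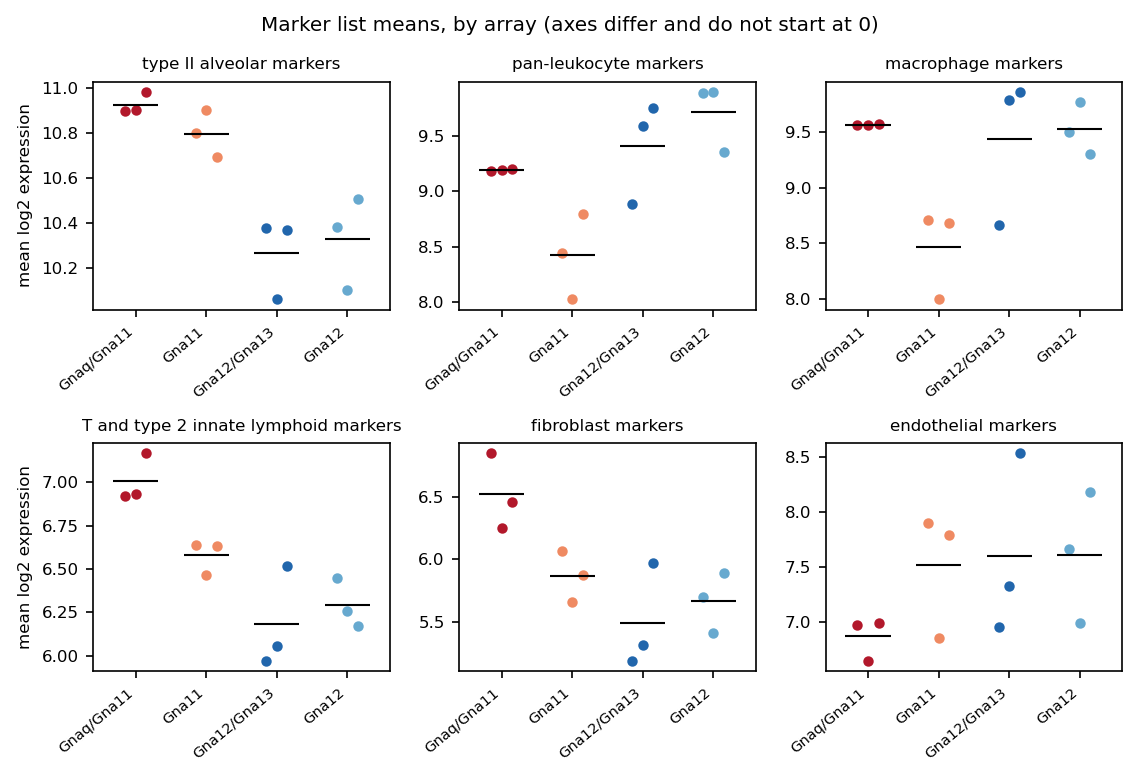
Mean log2 expression of 6 marker lists by array, with the 4 genotypes along each horizontal axis; points are arrays, bars are group means, and the vertical axes differ between panels and do not start at 0. The group means of pan-leukocyte and macrophage markers are lowest in Gna11 cells, while type II alveolar means are lower on the arrays of both genotypes without Gna12.

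The genes whose values most resembled those of Il33 were sought among 11500 genes with a mean at or above the probe set median and a regular symbol. Over the 12 arrays Pearson's r was 0.977 for Hkdc1, which encodes a hexokinase domain protein, 0.974 for Acot7, an acyl-CoA thioesterase, and 0.969 for Dipk1b. It was 0.968 for Dram1, a lysosomal protein of autophagy, and 0.966 for Chsy1, a chondroitin synthase, while the gene in place 100 had an r of 0.905. These values describe arrays that fall into 4 genotypes, and the correlation of deviations from the group means lay between 0.841 (Dipk1b) and 0.941 (Chsy1). Hkdc1 was at 9.62, 9.78 and 9.91 on the Gnaq/Gna11 arrays, against 9.19, 8.58 and 8.36 on the Gna11 arrays. It was at 7.92, 7.73 and 8.43 on the Gna12/Gna13 arrays, against 7.57, 7.54 and 8.40 on the Gna12 arrays. As for Il33, replicate 3 was the highest array in both genotypes without Gna12.

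As a check of the labels, the probe sets of the targeted genes were set against the arrays that kept the gene, and none passed as higher in the knockout cells. Those that passed as lower were 1 of 7 for Gnaq, with a log2 difference of -1.23, and 1 of 2 for Gna11, with -1.11. They were 2 of 5 for Gna12, with -0.32 and -0.31, and 1 of 7 for Gna13, with -1.04 (exact permutation tests, two-sided, adjusted over 21 probe sets). The array medians lay between 5.032 and 5.11, and arrays of 1 genotype correlated at 0.963 to 0.987.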

How the data were processed

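RNA of 12 samples was measured on arrays with 45101 probe sets, 64 of them controls. Per the submitters' processing notes, the authors used RMA, which corrects background, normalizes between arrays and summarises each probe set as a log2 value. The base is not stated, and was read as 2 since the values run from 2.12661 to 14.0616. The number of arrays, 3 per genotype, limits the precision. The platform annotation named 1 gene for 34945 probe sets, 34741 of which took their symbol from RefSeq GRCm38.p6 through the gene number. Il1rl1 was not analysed here.

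The probe set with the highest mean stood for its gene, and no filter on dim genes was used. A model with 1 mean per genotype was fitted to all 12 arrays in R 4.3.3, using lmFit of limma 3.58.1 and its eBayes moderation along an intensity trend; there were 8 residual degrees of freedom and 3.19 prior ones. P-values were two-sided and adjusted by Benjamini-Hochberg over 18193 genes, and a gene passed at an adjusted p under 0.05. The fit was tested on simulated data. The comparisons were double against single knockout in each family, the difference between these, Gna12 against Gna11, and Gnaq/Gna11 against Gna12/Gna13. Comparisons that share arrays are not independent. Alternatives were other probe set rules, a filter on dim genes, quantile normalization, array weights, the arrays of the groups compared alone, the replicate number as a block, 2 covariates, no trend and the omission of each array.

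The members and the 15 gene lists were chosen with earlier results of these data known, and Clca1 and macrophage genes were among those results. Of 213 list entries 197 were measured and 13 were not, and 3 repeated a gene under an older symbol. All measured members are named. From each list up to 3 genes with the smallest adjusted p between Gnaq/Gna11 and Gna11 cells are named, together with the 5 genes most correlated with Il33. Genes named from other comparisons passed there, except Siglecf, for which only values are given. These genes, and others marked in the text, were chosen after their values were seen. Promoter sequences come from RefSeq, for 8 of the 10 genes.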

Additional observations from a re-analysis of the deposited data

Results flagged for a closer look

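The double minus single knockout difference differed between the families of genotypes for Ccl17 and Ccl22. For Ccl17, the Gnaq/Gna11 minus Gna11 difference exceeded the Gna12/Gna13 minus Gna12 difference by 2.30 ± 0.224 (limma interaction, adjusted p = 0.00886). For Ccl22 it exceeded it by 3.08 ± 0.426 (limma interaction, adjusted p = 0.0398). The same test gave 2.83 ± 0.474 for Slc26a4 and 3.35 ± 0.664 for Clca1, which did not pass (limma interaction, adjusted p = 0.0569 and 0.0926). It gave 0.89 for Il33. Over all genes the interaction had 13 calls, and 0 to 40 in the alternatives, with 0 reached on omission of an array. The Gna11 arrays were the low group for Ccl17 and Ccl22, and effects of the position code cannot be told apart from those of genotype.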

How the results depend on the processing

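Il33 passed between Gnaq/Gna11 and Gna12/Gna13 cells in all 16 alternatives (2.63 to 3.22, limma adjusted p 0.00267 to 0.0346). Between Gnaq/Gna11 and Gna11 cells it stayed positive in all 16 (1.36 to 2.43, adjusted p 0.0359 to 0.588), and the count of member genes that passed went to 1 only with the arrays of the 2 groups alone; omitting an array gave 0. Between Gna12 and Gna11 cells Il33 stayed negative in all 16 (-2.49 to -0.762), but the count of members was 0 in place of 1 with the mean over probe sets (adjusted p = 0.0511), every probe set (0.0661), the 2 groups alone (0.147), no intensity trend (0.0587), the leukocyte covariate (-1.63, 0.864) and the Gapdh covariate (-0.762, 0.772), and 0 to 1 on omission of an array; the cause was not tested. The interaction of Il33 ran from 0.346 to 2.09 over 21 alternatives and passed in none.

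No member other than Il33 passed in any alternative run in the comparisons between 2 genotypes, and some changed sign. For Gnaq/Gna11 minus Gna11, Il4ra became 0.11 with the mean over probe sets, and with the Gapdh covariate Tslp became -0.0173, Il25 0.0405 and Il13ra1 -0.489; omitting an array gave -0.0271 to 0.0673 for Tslp, -0.125 to 0.0101 for Il5 and -0.269 to 0.55 for Il13ra1. For Gna12/Gna13 minus Gna12, Il13 became -0.0079 with array weights, and omission gave -0.0824 to 0.101 for Il13 and -0.00712 to 0.379 for Il13ra1. For Gna12 minus Gna11, Il1rap became 0.0156 with the mean over probe sets, 0.0252 with quantile normalization and 0.36 with the Gapdh covariate. There Il5 became 0.0514 with quantile normalization, 0.0138 with array weights and 0.0333 with the leukocyte covariate, and Il13ra1 -0.0323 with quantile normalization and -0.747 with the Gapdh covariate; omission gave -0.17 to 0.289 for Il1rap, -0.094 to 0.0408 for Il5 and -0.365 to 0.453 for Il13ra1. For Gnaq/Gna11 minus Gna12/Gna13, omission gave -0.243 to 0.0885 for Il25, -0.089 to 0.0806 for Il13 and -0.302 to 0.112 for Il13ra1.

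Counts over all genes ran from 3 to 394 for Gnaq/Gna11 minus Gna11 (335 as reported), 0 to 3 for Gna12/Gna13 minus Gna12 (0), 0 to 736 for Gna12 minus Gna11 (513), 369 to 1640 for Gnaq/Gna11 minus Gna12/Gna13 (1109) and 0 to 40 for the interaction (13). By the rule used, that every pair's correlation exceeds 0.1, the replicate numbers were not taken to pair the arrays. Same-numbered arrays correlated at 0.009, 0.025 and 0.06 for Gnaq/Gna11 with Gna11, and 0.004, 0.008 and 0.036 for Gnaq/Gna11 with Gna12/Gna13. They correlated at -0.014, 0.271 and 0.196 for Gna12/Gna13 with Gna12, and 0.018, 0.198 and 0.142 for Gna12 with Gna11. Arrays of different numbers gave -0.285 to 0.062 for Gna12/Gna13 with Gna12 and -0.203 to 0.103 for Gna12 with Gna11. Same-numbered arrays 2 and 3 were thus more alike there than arrays of different numbers. With the replicate block Il33 differed by 1.48 in Gnaq/Gna11 minus Gna11 and by 0.586 ± 0.378 in Gna12/Gna13 minus Gna12 (limma, adjusted p = 0.0909 and 0.975). It differed by -1.95 in Gna12 minus Gna11 and by 2.84 in Gnaq/Gna11 minus Gna12/Gna13 (limma, adjusted p = 0.0386 and 0.00654). No member's call changed. Array signal under the probe set median on most or all arrays limits what can be said of Tslp, Il25, Il13, Il4, Il5, Il1rap, Clca1 and Mmp12.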
